A study of Mus musculus with 6 samples.

Results

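The genes described here encode the enzymes that write and erase methyl groups on histone lysines, the subunits that hold those enzymes in complexes, and the Polycomb proteins. They were chosen by name and function as a set of 52 genes, and 51 of the 52 could be measured, among 15224 genes tested on the array. The RNA came from CH12F3-2A, a mouse B lymphoma line that turns from IgM to IgA production. In 3 samples the cells were transfected by electroporation with an siRNA to Spt6 (siSpt6), and in 3 samples with a control siRNA (siControl). Every sample was given the stimulus CIT, which is CD40L, IL4 and TGFb, 24 h after transfection, and was cultured for another 24 h. There was no unstimulated sample among the 6 arrays, so each value below describes stimulated cells. The line is a single tumour line, and no siRNA sequence is given in these sources.

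A histone lysine methyltransferase (writer) places methyl groups, and a lysine demethylase (eraser) takes them off. Trimethyl H3K4 lies at the starts of active genes and is placed by SET1 and MLL enzymes, which work in a shared complex with WDR5, ASH2L, RBBP5 and DPY30. H3K27 methylation is the mark of the silencing complex PRC2, H3K9 methylation marks heterochromatin, and H3K36 methylation is placed along transcribed gene bodies. PRC1 places ubiquitin on histone H2A and compacts Polycomb targets. The study's title ties Spt6, a histone chaperone that travels with RNA polymerase II, to H3K4me3 and to the target choice of AID, the deaminase of class switching. Which genes of these pathways differ in RNA level between siSpt6 and siControl cells is the question of the comparison.

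The arrays read one RNA each in 1 colour, as an intensity in arbitrary units with near-equal medians on every array. Log2 intensities correlated with r of 0.987 to 0.991 between arrays of the same group and of 0.976 to 0.981 between arrays of different groups. The probe of Supt6, the gene of Spt6, read 25.1, 21.8 and 28.1 on the siSpt6 arrays, against 33.1, 32.1 and 32.1 on the siControl arrays. Every siSpt6 value lay below every siControl value, but the log2 difference of -0.38 (SE 0.13) did not pass the test across all probes (limma, adjusted p = 0.0973). It passed after cyclic loess normalization, at -0.42 (limma, adjusted p = 0.0491). B cell markers were present, with 8 of 10 measured and means between 38.4 and 17745 in siSpt6 cells and between 39.4 and 21108 in siControl cells. Of these 8, Cd79b was higher (0.55; limma, adjusted p = 0.0391) and Cd22 lower (-0.62; limma, adjusted p = 0.0281), and the list's median of 0.09 became 0.40 after quantile normalization and after cyclic loess. Of 5 T cell markers and 5 myeloid markers measured, 0 passed the test. T cell marker means ran from 1.82 to 20.7 in siSpt6 cells and from 2.03 to 20.8 in siControl cells. Myeloid marker means ran from 1.24 to 65.3 in siSpt6 cells and from 1.64 to 60.5 in siControl cells. All 12 S phase genes measured had a lower mean in siSpt6 cells, and 9 of them passed the test. Their summed intensity was 9866 to 10768 on the siSpt6 arrays and 17473 to 18827 on the siControl arrays. In RNA of whole cultures, fewer cells in S phase and less of these RNAs per cell cannot be told apart. The part of cell cycle state in the differences below was not tested. Whether the samples of one group were separate cultures is not stated in the labels, so p-values here measure sample-to-sample spread alone, and that spread may be technical.

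Of the 51 members, 7 passed the test at an adjusted p of 0.05 (limma, Benjamini-Hochberg over all 21584 probes tested). Kdm5b, Jarid2 and Cbx7 were higher in siSpt6 cells, and Nsd1, Kdm5c, Men1 and Rbbp7 were lower. These 7 are 13.7% of the members, while 17.0% of all 15224 genes passed the same test, 7.4% higher and 9.65% lower; over all probes the shares were 16.3%, 7.43% higher and 8.9% lower. The share of members is therefore no larger than the share of all genes. With any 1 array left out, 3 or 4 members passed (5.88% to 7.84%), where 10.5% to 12.6% of genes did. The median log2 difference of the members was -0.06, against -0.00 over all genes. By another count, the 3 siSpt6 values did not overlap the 3 siControl values for 21 members, 8 higher and 13 lower, where 38.6% of the 14405 genes with a value on all arrays did not overlap, 16.9% higher and 21.6% lower. At an unadjusted p under 0.05 there were 17 members (33.3%), against 31.4% of genes.

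By mark, the groups held 0 to 3 calls each. Among 16 genes of H3K4 methylation, 1 rose and 2 fell, with a median log2 difference of -0.00. These calls are 18.8% of the H3K4 genes, near the 17.0% of all genes. Among 11 genes of H3K27 methylation, 1 rose and 1 fell (18.2%, median -0.05), and among 8 PRC1 genes 1 rose and 0 fell (12.5%, median -0.08). Of 7 genes of H3K9 methylation, 0 passed the limma test and 2 had an unadjusted p under 0.05 (median -0.13). Of 5 genes of H3K36 methylation, 1 fell (20.0%, median 0.03). The 3 Kdm4 erasers, which act on both H3K9 and H3K36, had 0 calls and 2 with an unadjusted p under 0.05 (median -0.06). By role, 1 of 16 writers fell (6.25%), and 2 of 21 partner subunits rose and 2 fell (19.0%). Among 14 erasers, 1 rose and 1 fell (14.3%), where 17.0% of all genes passed. All 8 PRC1 genes were counted as partners, the called Cbx7 and the ubiquitin ligase Rnf2 included. The medians were -0.04 for writers, -0.15 for partners and 0.20 for erasers, with 9 of the 14 erasers above 0. Of all 15224 genes, 7580 were above 0. The medians by role are given on the deposited scale alone. On that scale the 5396 brightest probes had a median of -0.15, and 22 of the 51 members were among these probes. The differences between marks or between roles were not tested. After quantile normalization and after cyclic loess the H3K27 median was 0.23 and 0.21, so its sign turned, and the median of all members was 0.04 and 0.03. The medians by mark also moved with single arrays. With 1 array left out, they ran from -0.14 to 0.09 for H3K4, from -0.11 to 0.01 for H3K27, from -0.30 to -0.04 for H3K9, from -0.20 to 0.07 for the Kdm4 erasers and from -0.10 to 0.10 for H3K36, while PRC1 stayed between -0.09 and -0.05. The lowest values for H3K4, H3K9, Kdm4 and H3K36 came without siSpt6 replicate 3, and the highest for H3K4, H3K27 and Kdm4 without siSpt6 replicate 2. The lowest for H3K27 and the highest for H3K9 came without siControl replicate 2, and the highest for H3K36 without siSpt6 replicate 1.

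**Figure D1:**
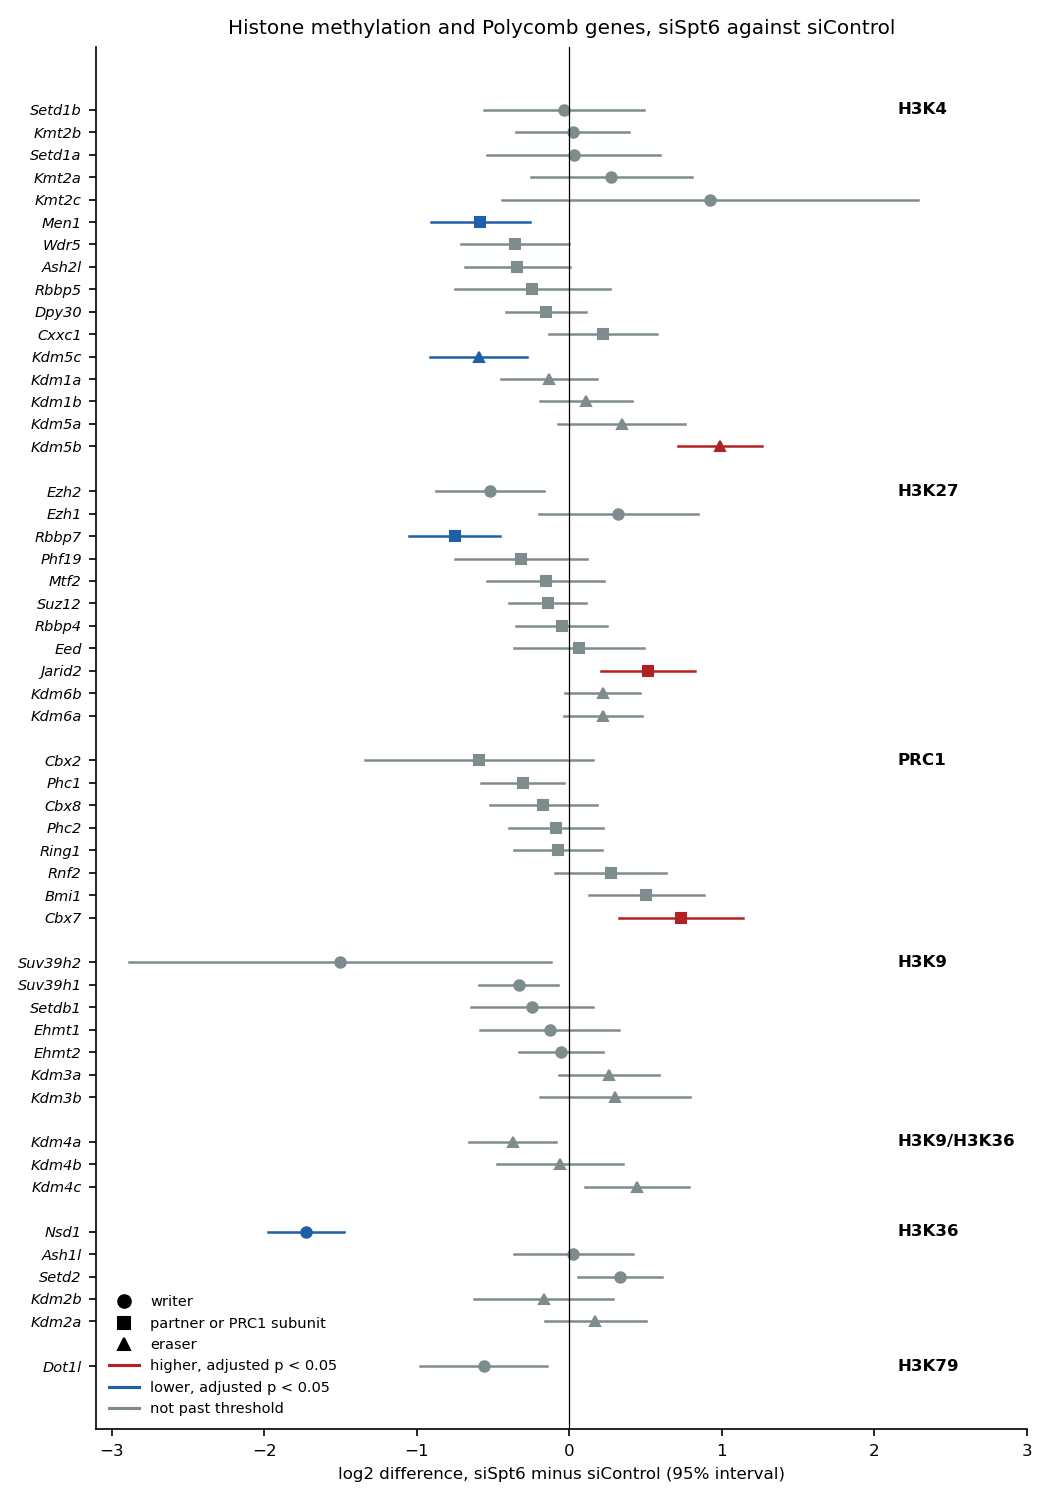
Log2 difference in RNA level, siSpt6 minus siControl, for the 51 measured members, grouped by the mark they act on. Points are limma estimates from 3 arrays a group and lines are 95% intervals; red and blue mark the 3 higher and 4 lower genes past an adjusted p of 0.05, and Nsd1 stands farthest from 0 among them.

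Nsd1 had the largest change among the members. It encodes a writer of H3K36 methylation, on mouse chromosome 13. Its probe read 10.7, 10.2 and 10.5 on the siSpt6 arrays, against 34.5, 33.8 and 35.6 on the siControl arrays. The groups lay far apart and each was tight, with means of 10.5 ± 0.225 in siSpt6 cells and 34.6 ± 0.89 in siControl cells (SD, n = 3 each). The siSpt6 mean lay within the range of T cell marker means in those cells (1.82 to 20.7). The probe was near the 39th percentile of brightness, and how background was corrected is not given. Like each measured member, Nsd1 had 1 probe on the array. The log2 difference was -1.72 (SE 0.10, 95% interval -1.97 to -1.48), a level 3.31 times lower in siSpt6 cells (limma, adjusted p = 0.000568). Among all 15224 genes this was the 44th largest fall and the 23rd smallest p-value. The call held in every processing alternative and with any of the arrays left out, where the adjusted p from limma ran from 0.00326 to 0.0045.

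The other enzymes of H3K36 did not pass. Setd2, which encodes the main enzyme for H3K36 trimethylation, read 167, 172 and 193 on the siSpt6 arrays, against 135, 142 and 144 on the siControl arrays. Its log2 difference was 0.34 (SE 0.12; limma, adjusted p = 0.0998), in the opposite direction to that of Nsd1, and it passed after quantile normalization and cyclic loess (adjusted p = 0.0476 and 0.0497). Ash1l, another H3K36 writer, differed by 0.03 (adjusted p = 0.935). Kdm2a, an H3K36 demethylase with the brightest H3K36 probe, read 392, 416 and 459 on the siSpt6 arrays, against 358, 338 and 432 on the siControl arrays. These overlapped, with a log2 difference of 0.17 (limma, adjusted p = 0.471). It was 0.32 after quantile normalization, 0.31 after cyclic loess, 0.10 without siControl replicate 2, 0.11 without siSpt6 replicate 3 and 0.28 without siControl replicate 3, and passed in none of these. Its relative Kdm2b differed by -0.17 (adjusted p = 0.62).

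Kdm5b was the largest called rise. It encodes an eraser of H3K4 methylation and is listed on the array under the older name Jarid1b. Its probe read 36.4, 37.0 and 37.3 on the siSpt6 arrays, against 20.2, 17.1 and 18.7 on the siControl arrays. The siControl values lay within the range of T cell marker means in those cells (2.03 to 20.8), and the probe was near the 44th percentile of brightness. The log2 difference was 0.99 (SE 0.12, 95% interval 0.71 to 1.26), a ratio of 1.98 (limma, adjusted p = 0.00297). With any of the arrays left out its adjusted p from limma stayed between 0.0101 and 0.0158. Kdm5c, which encodes a close relative on the X chromosome (listed as Jarid1c), went the other way. It read 7.23, 6.33 and 6.57 on the siSpt6 arrays, against 11.1, 8.84 and 10.5 on the siControl arrays, with no overlap. Its log2 difference was -0.59 (SE 0.13; limma, adjusted p = 0.028), 1.51 times lower in siSpt6 cells. This probe lay near the 25th percentile of brightness, and both Kdm5c groups lay within the range of T cell marker means. The call was lost when any array but siControl replicate 2 was left out (limma, adjusted p up to 0.0872). Kdm5a, the third of these relatives that was measured, differed by 0.34 (adjusted p = 0.246).

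The promoters of Kdm5b and Kdm5c are printed because these related erasers were called in opposite directions. Each run is the 250 bases before the gene's start in RefSeq (GRCm38.p6), 5′ to 3′ on the gene's strand, at chr1:134559928-134560177 (+) for Kdm5b and chrX:152232977-152233226 (+) for Kdm5c.
Kdm5b: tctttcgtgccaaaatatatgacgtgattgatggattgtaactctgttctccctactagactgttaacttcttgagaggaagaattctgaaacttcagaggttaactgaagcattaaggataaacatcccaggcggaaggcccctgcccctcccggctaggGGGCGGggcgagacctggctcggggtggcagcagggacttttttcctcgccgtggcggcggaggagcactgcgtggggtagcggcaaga
Kdm5c: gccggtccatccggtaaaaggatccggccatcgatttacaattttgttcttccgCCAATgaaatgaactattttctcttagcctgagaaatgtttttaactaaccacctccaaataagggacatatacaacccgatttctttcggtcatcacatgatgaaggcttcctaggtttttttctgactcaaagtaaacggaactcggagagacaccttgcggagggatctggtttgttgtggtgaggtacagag
Capitals mark matches to any of 6 motifs searched on both strands. These were the TATA box (TATAAA), the CCAAT box (CCAAT), the E-box (CACGTG), the GC box (GGGCGG), the ETS core (CCGGAAG) and the E2F core (TTCCCGC), and none of the matches printed overlaps another. The Kdm5b window held 13 CpG dinucleotides, 54.4% G or C and 1 GC box, while the Kdm5c window held 10 CpG, 43.6% G or C and 1 CCAAT box. Of 32851 promoters of the same length, 32.7% held the GC box and 33.8% the CCAAT box, and the median promoter held 6 CpG and 52.4% G or C. A match describes these letters and is not a site shown to be used. Nsd1 is named only, with no sequence.

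Among the subunits that work with the H3K4 writers, Men1 passed the test. It encodes menin, a partner of the MLL enzymes. Its probe read 78.6, 72.5 and 94.0 on the siSpt6 arrays, against 122, 116 and 128 on the siControl arrays. The groups did not overlap, with means of 81.7 ± 11.1 in siSpt6 cells and 122 ± 6.13 in siControl cells (SD, n = 3 each). The log2 difference was -0.58 (SE 0.14; limma, adjusted p = 0.0312), and this call was lost when any array but siSpt6 replicate 3 was left out (adjusted p up to 0.0901). The core subunits Ash2l, Wdr5, Rbbp5 and Dpy30 had log2 differences of -0.34, -0.36, -0.24 and -0.15, and 0 of the 4 passed. Dpy30, with the brightest probe of the H3K4 genes, read 906, 898 and 974 on the siSpt6 arrays, against 1050, 981 and 1053 on the siControl arrays. Its difference took the opposite sign after quantile normalization (0.08) and cyclic loess (0.05). Cxxc1, which encodes the CpG-binding subunit of the SET1 complex, differed by 0.22 (limma, adjusted p = 0.379).

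Of the H3K4 writers, 5 were measured and 0 passed the limma test, also at an unadjusted p under 0.05. Kmt2a, Kmt2b, Setd1a and Setd1b had log2 differences of 0.28, 0.03, 0.03 and -0.03. Kmt2c read 235, 186 and 139 on the siSpt6 arrays, against 177, 138 and 36.2 on the siControl arrays. The groups overlapped, siControl replicate 3 was far below the other arrays, and the log2 difference was 0.93 (SE 0.58; limma, adjusted p = 0.339). Kmt2d could not be counted, because the older symbol Mll2 on the array has been used for both Kmt2b and Kmt2d. That probe read 21.9, 16.5 and 19.5 on the siSpt6 arrays, against 17.9, 16.2 and 17.5 on the siControl arrays, and differed by 0.15 (adjusted p = 0.528). The LSD-type erasers Kdm1a and Kdm1b differed by -0.13 and 0.11.

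Rbbp7 fell among the PRC2 subunits. It encodes a histone-binding WD40 protein that PRC2 shares with deacetylase and remodelling complexes. Its probe read 4281, 4539 and 4343 on the siSpt6 arrays, against 7866, 7882 and 6490.2 on the siControl arrays. Means were 4387 ± 135 in siSpt6 cells and 7413 ± 799 in siControl cells (SD, n = 3 each). The log2 difference was -0.75 (SE 0.13; limma, adjusted p = 0.00967), 1.68 times lower in siSpt6 cells. The call held with any array left out but was lost after quantile normalization (-0.42, adjusted p = 0.068) and cyclic loess (-0.42, adjusted p = 0.0501). Beside this stands a trend over all probes: the median log2 difference was 0.09 for probes up to the 25th percentile of brightness and -0.15 for as many probes at the bright end, and the 99th percentile of intensity was 6488 to 6670 on the siSpt6 arrays and 8268 to 8544 on the siControl arrays. Its near relative Rbbp4 differed by -0.05 (adjusted p = 0.845).

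**Figure D2:**
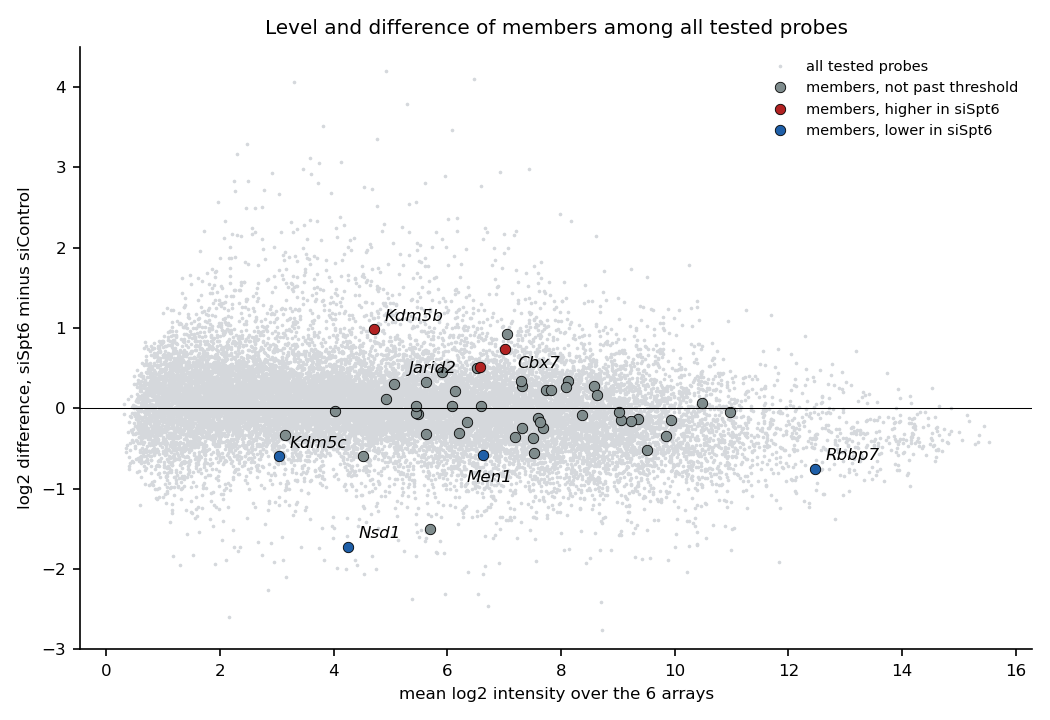
Mean log2 intensity over the 6 arrays (horizontal axis) against the log2 difference, siSpt6 minus siControl (vertical axis), for all tested probes in light grey and for the members as larger points. Rbbp7 lies at the bright end, where most probes are below 0, and Kdm5c is the dimmest member.

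Jarid2 rose. It encodes a PRC2 partner that helps bring the complex to chromatin, and its probe read 112, 104 and 128 on the siSpt6 arrays, against 77.5, 75.8 and 85.8 on the siControl arrays. The log2 difference was 0.52 (SE 0.13; limma, adjusted p = 0.039), but the call was lost when any of the 6 arrays was left out (adjusted p of 0.0586 to 0.11). Ezh2, which encodes the main H3K27 methyltransferase, read 546, 602 and 697 on the siSpt6 arrays, against 761, 950 and 929 on the siControl arrays. All 3 siSpt6 values were below the siControl values, yet the log2 difference of -0.52 (95% interval -0.87 to -0.16) did not pass across all probes (limma, adjusted p = 0.0606). It was -0.32 after quantile normalization and -0.34 after cyclic loess (limma, adjusted p = 0.184 and 0.164). Its relative Ezh1 differed by 0.32 (adjusted p = 0.386). The core subunits Eed and Suz12 differed by 0.07 and -0.14, and the accessory subunits Mtf2 and Phf19 by -0.15 and -0.31. Both H3K27 erasers, Kdm6a and Kdm6b, had a log2 difference of 0.22, with no overlap between the groups and adjusted p-values of 0.227 and 0.216. Kdm6a read 230, 255 and 251 on the siSpt6 arrays, against 212, 210 and 209 on the siControl arrays.

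Cbx7 was the called gene of PRC1. It encodes a chromodomain subunit that binds methylated H3K27, and its probe read 155, 142 and 208 on the siSpt6 arrays, against 101, 91.7 and 108 on the siControl arrays. Means were 169 ± 35.0 in siSpt6 cells and 100.2 ± 8.30 in siControl cells (SD, n = 3 each). The log2 difference was 0.74 (SE 0.17; limma, adjusted p = 0.0306), lost when any array but siSpt6 replicate 2 was left out (adjusted p up to 0.0893). Bmi1, a core PRC1 ring-finger subunit, read 133, 106 and 93.3 on the siSpt6 arrays, against 83.6, 74.0 and 74.0 on the siControl arrays. Its log2 difference of 0.51 did not pass (limma, adjusted p = 0.0763). Rnf2, the E3 ubiquitin ligase with the brightest probe of the PRC1 genes, read 485, 383 and 408 on the siSpt6 arrays, against 406, 315 and 337 on the siControl arrays, an overlap with a log2 difference of 0.27 (adjusted p = 0.291). Ring1, Cbx8, Phc1 and Phc2 differed by -0.07, -0.17, -0.31 and -0.08. Cbx2 differed by -0.59 with an adjusted p of 0.265, and its siControl values alone spread between 19.4 and 43.2.

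The promoters of Jarid2 and Cbx7 are printed because these were the Polycomb genes called higher, at chr13:44730524-44730773 (+) for Jarid2 (the most upstream of 2 starts) and chr15:79932647-79932896 (-) for Cbx7.
Jarid2: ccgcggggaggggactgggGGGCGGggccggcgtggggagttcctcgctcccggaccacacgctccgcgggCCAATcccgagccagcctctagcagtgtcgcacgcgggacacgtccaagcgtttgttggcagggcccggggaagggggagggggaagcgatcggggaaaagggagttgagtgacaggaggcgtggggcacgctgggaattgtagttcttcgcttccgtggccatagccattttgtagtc
Cbx7: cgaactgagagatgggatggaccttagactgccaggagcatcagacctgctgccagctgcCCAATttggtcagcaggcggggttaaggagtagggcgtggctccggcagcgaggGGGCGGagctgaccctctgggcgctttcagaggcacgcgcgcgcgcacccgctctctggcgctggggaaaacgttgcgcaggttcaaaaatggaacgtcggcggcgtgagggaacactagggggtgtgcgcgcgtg
Both windows held 23 CpG dinucleotides, 1 CCAAT box and 1 GC box, with 67.2% G or C for Jarid2 and 64.8% for Cbx7. The promoters of the falling genes Rbbp7 and Men1 each held a CCAAT box and at least 1 GC box too. The TATA box, E-box, ETS core and E2F core had 0 matches in the 6 promoters of called genes found in the table, where 12.4%, 6.02%, 6.91% and 3.82% of all promoters held them. No match says only that these letters are not in these windows.

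**Figure D3:**
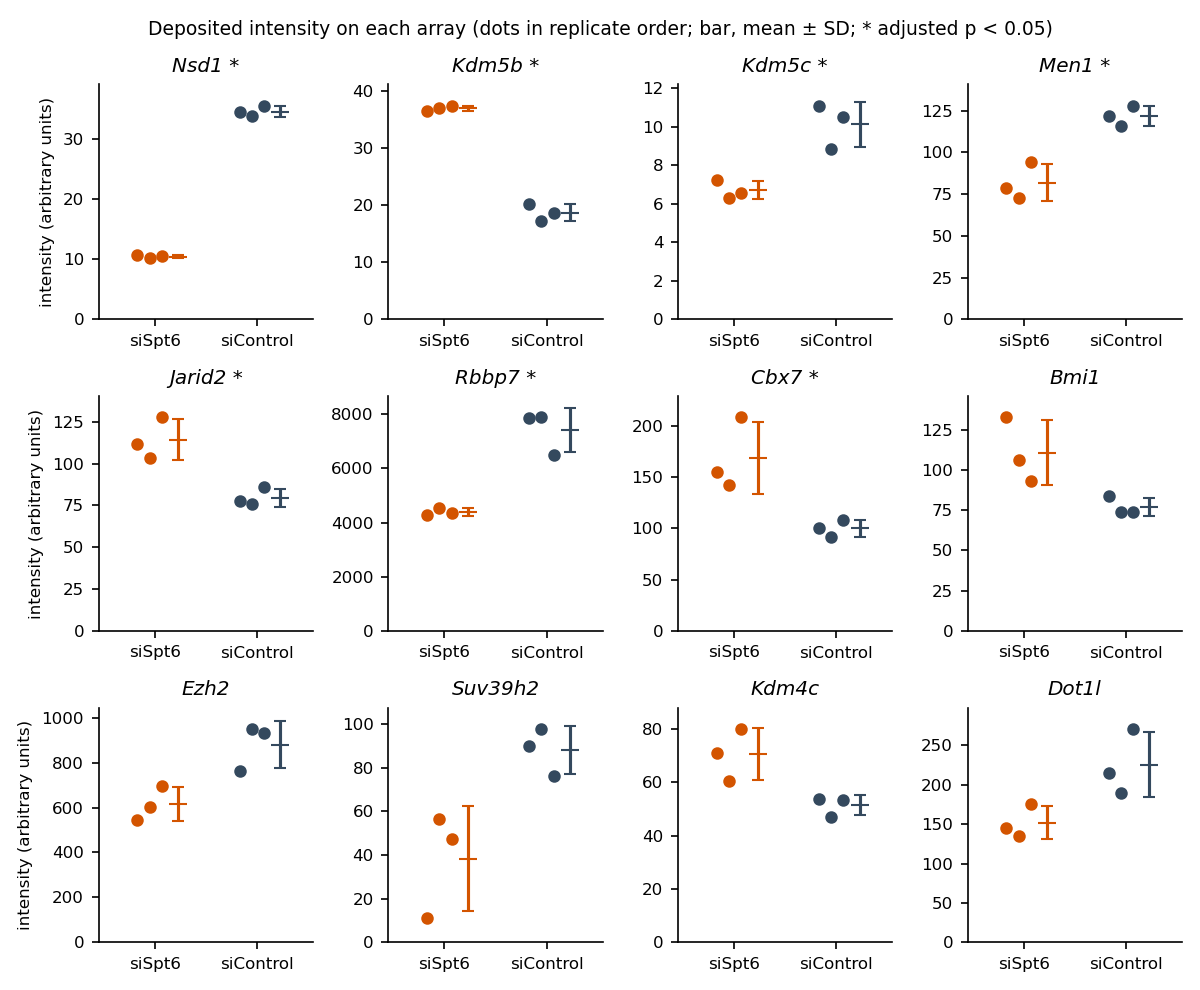
Deposited intensity in arbitrary units on each of the 3 siSpt6 arrays and 3 siControl arrays for 12 members, with the mean ± SD beside the dots and an asterisk for an adjusted p under 0.05. Nsd1 and Kdm5b show tight groups far apart, and siSpt6 replicate 1 of Suv39h2 stands below the other arrays at 11.0.

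The 5 H3K9 writers all had a negative difference on the deposited scale, as did 7644 of all 15224 genes, and 0 of the 5 passed. Suv39h2, which encodes an enzyme that trimethylates H3K9 in heterochromatin, read 11.0, 56.7 and 47.1 on the siSpt6 arrays, against 90.0, 97.7 and 76.0 on the siControl arrays. The log2 difference of -1.50 (SE 0.58; limma, adjusted p = 0.136) rested in size on siSpt6 replicate 1. Without that array it was -0.76 and passed (limma, adjusted p = 0.0457). Its relative Suv39h1 read 7.76, 8.28 and 7.56 on the siSpt6 arrays, against 9.69, 10.2 and 9.82 on the siControl arrays. The log2 difference of Suv39h1 was -0.33 (limma, adjusted p = 0.0848), and both groups lay within the range of T cell marker means. Ehmt2, one of the G9a and GLP pair that writes dimethyl H3K9, read 512, 474 and 539 on the siSpt6 arrays, against 496, 533 and 551 on the siControl arrays. These overlapped, and the interval of the log2 difference ran from -0.33 to 0.22; its sign turned under quantile normalization (0.12) and cyclic loess (0.10). Ehmt1 and Setdb1 differed by -0.13 and -0.24. The erasers Kdm3a and Kdm3b differed by 0.26 and 0.30, with adjusted p-values of 0.262 and 0.391.

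Of the Kdm4 erasers, Kdm4a and Kdm4c differed in opposite directions without passing the test. Kdm4a read 160, 151 and 174 on the siSpt6 arrays, against 210, 194 and 221 on the siControl arrays (-0.37; limma, adjusted p = 0.083). Kdm4c read 70.9, 60.5 and 80.0 on the siSpt6 arrays, against 53.8, 47.1 and 53.4 on the siControl arrays (0.45; limma, adjusted p = 0.0819). For neither gene did the siSpt6 and siControl values overlap. Kdm4b differed by -0.06 (adjusted p = 0.861). Dot1l, the H3K79 methyltransferase, read 145, 135 and 175 on the siSpt6 arrays, against 215, 190 and 271 on the siControl arrays. Its groups did not overlap, and the log2 difference was -0.56 (95% interval -0.98 to -0.15; limma, adjusted p = 0.0756).

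Related members can be set against each other within each array, where a shift shared by all probes of the array cancels. A shift that changes with brightness does not cancel between probes of unlike level. The difference for Kdm1a to Kdm1b, a bright and a dim probe, ran from -0.26 to -0.03 among the alternatives. Of 19 such pairs, 18 were measured, and for 9 the 3 siSpt6 ratios did not overlap the 3 siControl ratios, 5 higher and 4 lower. Over all pairs of genes with a value on every array, the ratios did not overlap for 39.8%. The related pairs were drawn from members chosen with earlier results of these data known. Kdm5b/Kdm5c and Kdm5b/Kdm5a share a gene, as do Kdm4a/Kdm4b and Kdm4a/Kdm4c, so the 9 pairs are not independent. Kdm5a/Kdm5c and Kdm4b/Kdm4c were not listed. The count of related pairs without overlap was 7 after quantile normalization and after cyclic loess, and 9 to 11 with 1 array left out. An exact two-sided permutation test with 3 arrays a group cannot go below 0.1, which these 9 pairs reached (0.2 after adjustment over the 18 pairs), so no pair could pass. The log2 ratio of Kdm5b to Kdm5c was 2.33, 2.55 and 2.51 on the siSpt6 arrays, against 0.86, 0.95 and 0.83 on the siControl arrays, a difference of 1.58. The ratio of Kdm4a to Kdm4c was 1.17, 1.32 and 1.12 on the siSpt6 arrays, against 1.97, 2.04 and 2.05 on the siControl arrays, a difference of -0.82. For Kdm5b/Kdm5c and Kdm4a/Kdm4c the ratios had to separate. The genes of each pair already differed without overlap in opposite directions, so their place among the 9 pairs adds no separate result. The ratio of Rbbp4 to Rbbp7 was -1.02, -1.32 and -1.11 on the siSpt6 arrays, against -1.96, -2.06 and -1.54 on the siControl arrays, a difference of 0.70. Cbx7 to Cbx8 differed by 0.90, and Kdm5b to Kdm5a by 0.64. Suv39h1 to Suv39h2 differed by 1.17, which became 0.44 without siSpt6 replicate 1. Ezh1 to Ezh2 differed by 0.84 with overlapping groups (exact permutation p = 0.2, 0.3 after adjustment), and the ratio of Kdm6a to Kdm6b by 0.00 (exact permutation p = 0.9).

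**Figure D4:**
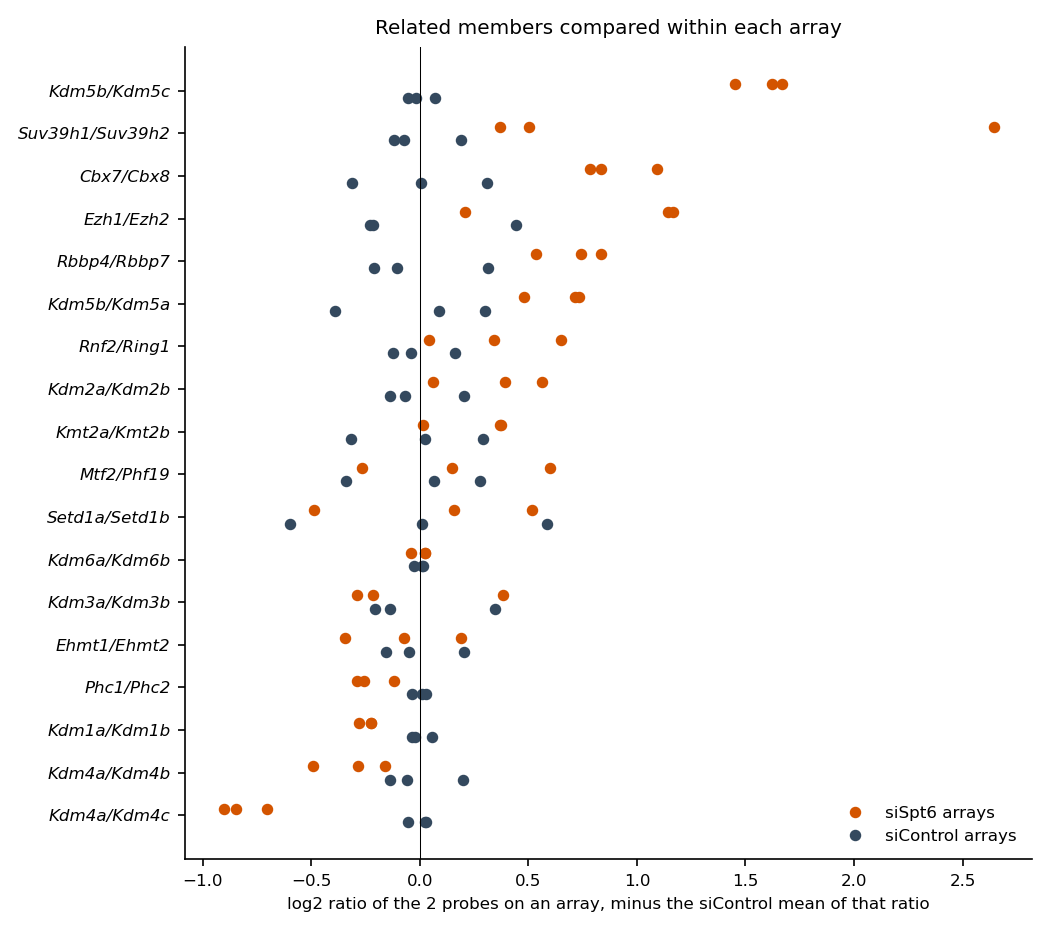
Log2 ratio of related members on each array (horizontal axis), minus the siControl mean of that ratio, for 18 pairs with siSpt6 arrays above siControl arrays in each row. The Kdm5b/Kdm5c ratio lies highest at a difference of 1.58 and Kdm4a/Kdm4c lowest at -0.82, and siSpt6 replicate 1 stands alone in the Suv39h1/Suv39h2 row.

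Outside the 52 genes, a list of 74 other histone lysine methylation and Polycomb genes had 70 measured. Of these, 2 rose and 10 fell, which is 17.1% and near the 17.0% of all genes, and the median log2 difference was 0.01. Rcor2, a partner of LSD1 in corepressor complexes, read 45.4, 42.3 and 63.1 on the siSpt6 arrays, against 124, 114 and 131 on the siControl arrays (-1.31; limma, adjusted p = 0.00464). Riox1 and Riox2, which encode JmjC oxygenases, fell by 0.74 and 0.91 on the log2 scale (limma, adjusted p = 0.00803 and 0.00612). Setd6, a lysine methyltransferase, fell by 0.84 (limma, adjusted p = 0.0064), and its second probe fell by 0.71. These 4 genes passed with any array left out. The rises were Kmt2e (0.52; limma, adjusted p = 0.0272), an MLL-family gene, and Smyd1 (0.49; limma, adjusted p = 0.0297), which encodes a muscle lysine methyltransferase. The Smyd1 probe was dim, reading 12.8, 13.0 and 13.3 on the siSpt6 arrays, against 8.80, 10.1 and 8.96 on the siControl arrays. Both groups lay within the range of the T cell marker means. Leaving out any of the 6 arrays ended the call of Kmt2e, and leaving out any of 5 of them that of Smyd1. Smyd1 also lost its call after cyclic loess (0.40; limma, adjusted p = 0.071) and with a trended and robust eBayes (adjusted p = 0.0567).

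**Figure D5:**
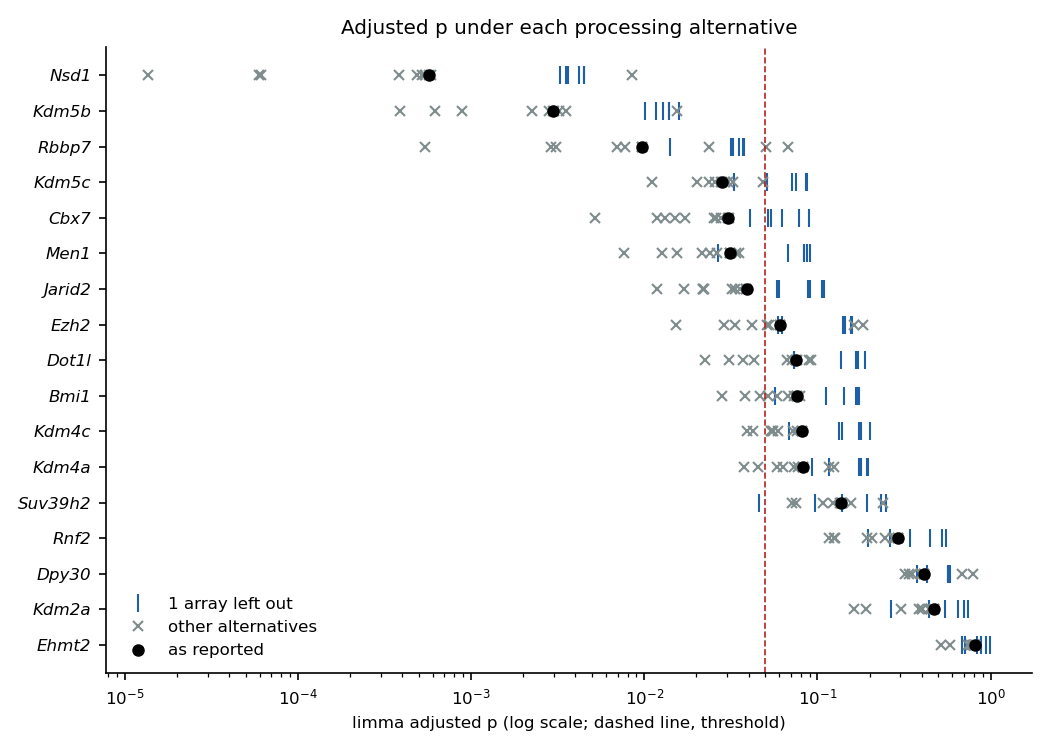
Adjusted p from limma (horizontal axis, log scale) for 17 members as reported (black dots), with 1 array left out (blue ticks) and under the other alternatives (grey crosses); the dashed line is 0.05. Nsd1 and Kdm5b stay left of the line throughout, Rbbp7 crosses it under 2 alternatives, and the other 4 called genes cross it when arrays are left out.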

How the data were processed

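RNA was amplified to aRNA, labelled with Cy5 and hybridised to Toray arrays, per the labels' protocols. The authors deposited 1 linear intensity per probe and array; how background was corrected or arrays normalized is not given in these sources. Array medians agreed within 0.00109 on the log2 scale, so the deposited intensities were log2-transformed as they stood. Blanks, 4.69% to 8.29% of 23473 probes on any array, were taken as missing. No detection limit was part of the values used. Symbols of the 16631 probes with 1 gene (0 had several, 6842 none) were updated through RefSeq names for GRCm38.p6: 12622 were current, 3947 older, 59 ambiguous and 3 unmatched. Probes with at least 2 of 3 values in each group were tested with limma 3.58.1 (lmFit, eBayes, group as the only term, two-sided) in R 4.3.3, with Benjamini-Hochberg adjustment over 21584 probes; the brightest probe stood for a gene. The analysis was tested on simulated data.

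Values on every array are given for members past the threshold, for those with non-overlapping groups and a log2 difference of at least 0.4, and for the brightest of each mark; a few others (Setd2, Suv39h1, Kdm6a and Kmt2c) were shown after their values were seen. From the other pathway genes, the 4 rises and 4 falls of lowest adjusted p, where there were as many, were named. The members and lists were chosen with earlier results of these data known. The labels give 2-mercaptoethanol in millimolar units for siSpt6 cultures and micromolar units for siControl cultures, and name a maker of the siRNA (Invitrogen) for siSpt6 alone. If real, these differences fall along the groups compared and cannot be told apart from them. Neither slides nor scans are given in these sources. The records of the siControl and siSpt6 samples are numbered in separate ranges, and no batch is stated. If the groups were run apart, that too cannot be told apart from the siRNA.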

Additional observations from a re-analysis of the deposited data

How the results depend on the processing

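Alternatives to the scaling were median centring, quantile normalization and cyclic loess. Others were complete or bright probes only, array weights, a pseudocount of 2.66, a trended and robust eBayes and a replicate block. Further ones were the mean of a gene's probes, each array left out, and a stricter threshold. Each measured member had 1 probe, so averaging probes could not move a member's difference. Complete probes only left these differences unchanged, and median centring barely moved them, so these settings say little about the members. Probes passing numbered 3525 (1603 higher, 1922 lower), 1354 at an adjusted p under 0.01, and 2099 to 2522 with 1 array left out (2099 without siControl replicate 1, 2160 without siSpt6 replicate 2, 2230 without siControl replicate 2, 2308 without siSpt6 replicate 1). The direction split turned with the scaling, to 1853 higher and 1379 lower after quantile normalization and 1808 and 1567 after cyclic loess. Members passing numbered 7, against 3 to 4 with any 1 array left out, 3 at an adjusted p under 0.01 (5.88%, where 6.59% of genes passed), 10 with the pseudocount (19.6%, where 20.1% passed), 12 with the trended and robust eBayes (23.5%, where 22.2% of genes passed) and 13 over bright probes only (25.5%, where 27.2% passed). The fits that gained members added Ezh2, Dot1l and Bmi1 in each of these last 3 settings, while Ezh2 shrank to -0.32 and -0.34 after quantile normalization and cyclic loess (limma, adjusted p = 0.184 and 0.164). The pathway list gave 6 to 8 calls with 1 array left out. Supt6 passed after cyclic loess (-0.42) and in no other alternative it was tested in. The median of members was 0.0357 after quantile normalization and 0.0332 after cyclic loess, and -0.10 to -0.00 with 1 array left out. Dpy30 reversed to 0.0786 and 0.0515, and Ehmt2 to 0.12 and 0.10, after quantile normalization and cyclic loess. With the replicate number as a block, 3594 probes and 9 members passed (17.6%, where 17.3% of genes did), with Ezh2 and Dot1l gained. The labels do not say what a shared number marks. Deviations of same-numbered arrays correlated at 0.351, 0.0759 and 0.262, and each array correlated best with its own number. Deviations from means of 3 arrays tie these correlations together, and how often an arbitrary numbering would match as well was not tested. This match is at most a hint from the data and does not come from the design. The cause of these shifts was not tested. Fewer arrays in a fit lower its precision, and 3 arrays a group limit all tests. Dim probes such as those of Kdm5c, Nsd1, Kdm5b and Supt6 have no stated background.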
